A study of Mus musculus with 12 samples.

Results

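The acute phase proteins described here are 10 genes taken by symbol from the table of liver mRNA levels: the serum amyloids Saa1, Saa2, Saa3, and Saa4, the orosomucoids Orm1 and Orm2, haptoglobin (Hp), hemopexin (Hpx), lipocalin 2 (Lcn2), and the fibrinogen beta chain (Fgb). All 10 were found among the 22456 genes of the table, and all 10 passed the minimum mean of 0.5 RPKM (a read count normalized to transcript length and library size) that left 11507 genes for testing. Liver RNA came from 12 male BALB/cByJ mice of 2 to 8 months, 3 in each of 4 groups. The Lpin1-/- animals carry the fatty liver dystrophy (fld) mutation in every tissue from birth, and their Lpin1+/+ controls were littermates of the same colony. Mice of both genotypes were housed singly for a 16-hour overnight fast and were either killed at its end (fasted) or given chow for a further 5 hours (refed), so that refed livers were also taken later in the day.

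In an acute phase response, cytokines released by macrophages (interleukin 6, interleukin 1, and tumor necrosis factor) act on hepatocytes through STAT3, NF-kB, and the C/EBP factors, and the liver raises its output of a set of secreted proteins while lowering others such as albumin and transthyretin. In the mouse, serum amyloids A1 and A2 are major acute phase reactants that travel on high-density lipoprotein, serum amyloid A3 is also made by macrophages and adipocytes, and serum amyloid A4 is produced constitutively. Orosomucoids bind small lipophilic ligands, haptoglobin captures free hemoglobin, hemopexin captures free heme, lipocalin 2 sequesters bacterial iron carriers, and fibrinogen forms the clot.

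Promoter sequences were searched for the letters bound by these factors, because the members described below moved together in some livers and apart in others. RefSeq promoter windows on GRCm38.p6, from 250 bases before to 50 after the start of transcription, were matched for 8 of the 10 genes; Orm1 and Hp had no entry. The C/EBP letters TTNNGNAAT, on either strand, were present in 4 of the 8 windows (Saa1, Saa2, Orm2, and Fgb) and in 11.6% of 27025 promoters. The Saa1 and Saa2 matches lie in nearly identical sequence and are not independent of each other. The letters of the interleukin 6 response element, CTGGGAA, were found in 1 of the 8 (Fgb) against 11.1% of all promoters, and those of STAT3, TTCNNNGAA, again in Fgb alone against 8.47%. The NF-kB letters (3 G, any 2 bases, 3 T, 2 C) were in 0 of the 8 and in 1.62% of all promoters. Saa3, Saa4, Hpx, and Lcn2 held none of these letters. A single fixed string was searched for each factor, so variant sites and sites outside the windows were not counted. Such matches describe letters, not binding. The windows below are 30 bases long, are written 5′ to 3′ along the gene's strand, and show the 4 members with a C/EBP match; capitals mark the match to the C/EBP letters, which in all 4 genes lies on the opposite strand. They are chr7:46743144-46743173 on the minus strand for Saa1, chr7:46751639-46751668 on the plus strand for Saa2, chr4:63362330-63362359 on the plus strand for Orm2, and chr3:83049852-83049881 on the minus strand for Fgb.
Saa1: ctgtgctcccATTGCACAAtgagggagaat
Saa2: ctgtgctcccATTGCACAAtgagggaaaat
Orm2: tgcgcaagacATTTCCCAAgtgctggggag
Fgb: ggaggtaaccATTCCTGAAgtcatgccggg
The interleukin 6 response element letters of Fgb lie at chr3:83049936-83049965, minus strand, and are in capitals here.
Fgb: aataaggcttgCTGGGAAgatgttgctcaa

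Saa1 to Saa4 lie together on chromosome 7 (GRCm38, GENCODE M21), with Saa3 at 46711998-46715700, Saa4 at 46727998-46732603, Saa1 at 46740497-46742980, and Saa2 at 46751790-46754313. Orm1 (chromosome 4, 63344560-63348163) and Orm2 (63362449-63365878) are also neighbors. The Saa1 and Saa2 transcripts are 94.4% identical, and 6.65% of the 69-base windows of Saa1 (the read length) occur in Saa2. Orm1 and Orm2 are 91.0% identical, with 15.4% of windows shared. The levels within each of these pairs are therefore uncertain in part, since reads from shared stretches could have been assigned to either gene or dropped.

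Relative depth, from the ratios of low RPKM values, ranged from 0.866 to 1.16 times that of fasted Lpin1+/+ replicate 1. Lpin1 was 21.96, 0.726, and 1.76 RPKM in fasted Lpin1+/+ liver and 2.92, 0.784, and 2.76 in refed Lpin1+/+ liver, against 0.0057 to 0.0597 in the 6 Lpin1-/- libraries, without overlap, although on the log2(RPKM + 1) scale the genotype difference missed the threshold (−2.19, adjusted p = 0.0562 fasted; −1.55, adjusted p = 0.231 refed). Hepatocyte markers were abundant in every library (36372 to 88521 RPKM summed over 9 genes), and no adipocyte or pancreatic acinar marker reached a mean of 0.5 RPKM. Because these are whole-tissue samples, fewer cells of a type and less RNA per cell cannot be told apart.

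A single library dominated the acute phase genes. Replicate 2 of refed Lpin1+/+ liver held the highest of the 12 values for 8 of the 10 members, the exceptions being Saa4 (second highest) and Fgb (ninth). Together the members made up 13.6% of its total RPKM, against 1.25% to 5.88% in the other 11 libraries, and Hpx and Hp were its first and second most abundant mRNAs. Saa1, Saa2, Saa3, and Lcn2 were each at least 4-fold above every other library; across all tested genes this was so for 141 of 11507 (1.23%). Since the members were chosen with this library among the data, these are descriptions.

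**Figure D1:**
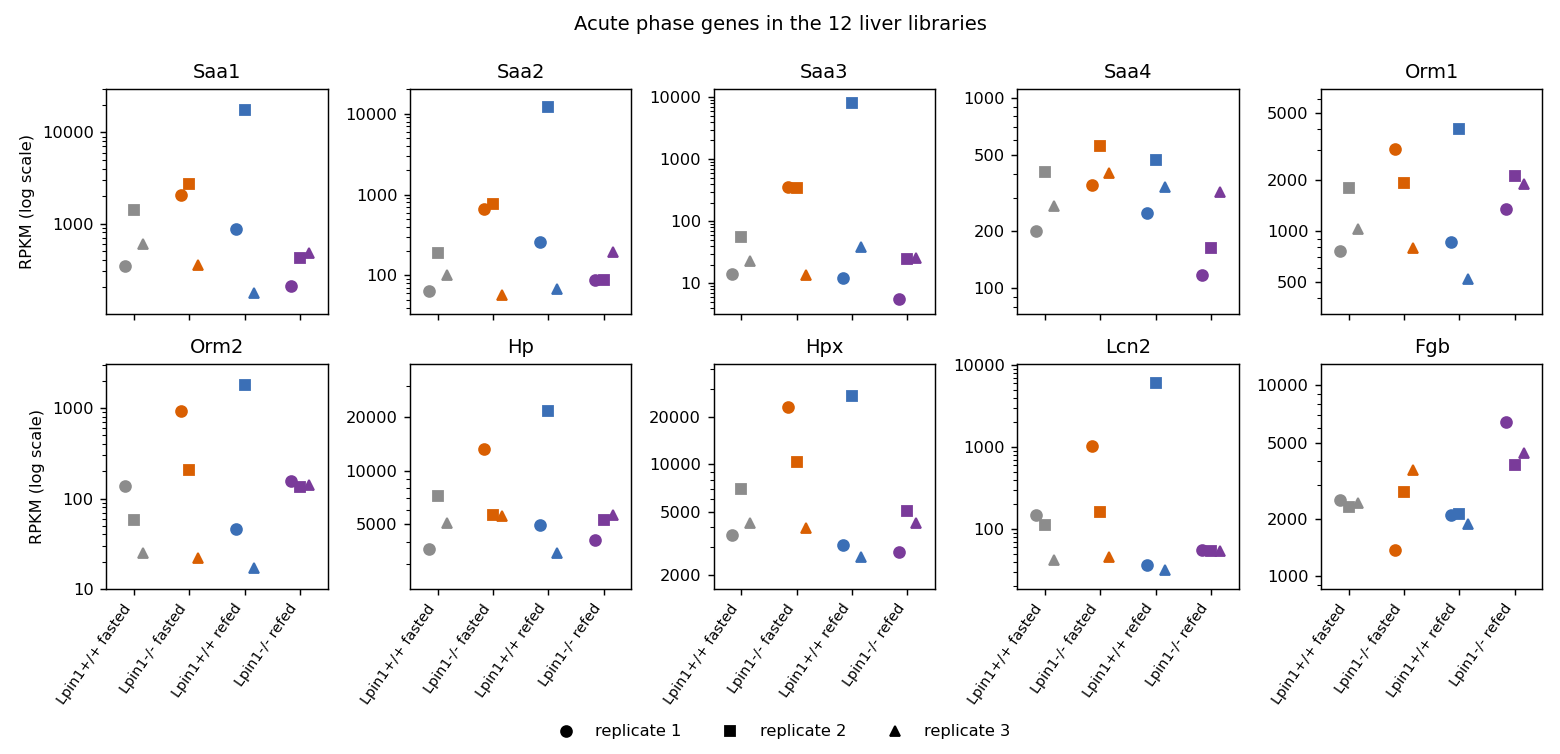
RPKM of each member in the 12 libraries, on a log axis with its own range in each panel; colors separate the 4 groups and symbols the replicate numbers. Refed Lpin1+/+ replicate 2 lies far above its group for 8 members, replicates 1 and 2 of fasted Lpin1-/- liver lie above replicate 3 for the same 8, and Fgb is highest in the 3 refed Lpin1-/- libraries.

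Markers of other cells also differed in that library. The summed level of 4 monocyte markers (Ly6c2, Ccr2, Itgam, and Lyz2) was 969 RPKM there, 654 in fasted Lpin1-/- replicate 1, and 19.0 to 113 in the other 10 libraries. Kupffer cell and macrophage markers (10 of 10 at a mean of at least 0.5 RPKM) summed to 789, second to the 834 of fasted Lpin1-/- replicate 1. Neutrophil markers (9 of 11 at that mean) summed to 101, within the range of the other libraries (5.04 to 188), and hepatocyte markers to 36372, the lowest of the 12 (54490 to 88521 elsewhere). The hepatocyte sum includes Alb, Ttr, and Apoa1, which are also listed here as negative acute phase proteins. Alb alone was 11777 RPKM in that library and 20772 to 45603 elsewhere. The part of these differences in the member levels was not tested.

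Among the serum amyloids, Saa3 had the widest range. It was 13.9, 56.5, and 23.3 RPKM in fasted Lpin1+/+ liver, 359, 339.9, and 13.5 in fasted Lpin1-/- liver, 12.2, 8058, and 37.9 in refed Lpin1+/+ liver, and 5.51, 24.2, and 25.3 in refed Lpin1-/- liver. The refed Lpin1+/+ replicate 2 value was 321-fold the mean of the other 2 libraries of its group, and replicates 1 and 2 of fasted Lpin1-/- liver were the next highest. The within-group SD on the log2 scale was 4.95 in refed Lpin1+/+ liver, where the median gene had 0.231. Refeeding changed Saa3 by 2.55 (SE 1.99, adjusted p = 0.609) on the log2 scale in Lpin1+/+ liver, and by −0.28 (adjusted p = 0.971) without replicate 2 of the refed group. In Lpin1-/- liver the difference was −2.90 (SE 1.99, adjusted p = 0.316), with overlapping groups.

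Saa1 and Saa2, the circulating acute phase forms, followed the same libraries. Saa1 was 341, 1399, and 590.2 RPKM in fasted Lpin1+/+ liver, 2033, 2696, and 349 in fasted Lpin1-/- liver, 863, 17751, and 175 in refed Lpin1+/+ liver, and 206, 421, and 474 in refed Lpin1-/- liver. Saa2 was 64.4, 188, and 102 in fasted Lpin1+/+ liver, 665, 775, and 57.2 in fasted Lpin1-/- liver, 262, 12051, and 67.7 in refed Lpin1+/+ liver, and 88.1, 87.2, and 196 in refed Lpin1-/- liver. For both genes replicates 1 and 2 of fasted Lpin1-/- liver were above all 3 fasted Lpin1+/+ libraries and replicate 3 was not, so the groups overlapped. Genotype differences in fasted liver were 0.92 (SE 1.35, adjusted p = 0.677) for Saa1 and 1.52 (SE 1.55, adjusted p = 0.534) for Saa2. In refed liver they were −2.01 (adjusted p = 0.414) and −2.38 (adjusted p = 0.397) with all libraries, and −0.17 and −0.22 without refed Lpin1+/+ replicate 2.

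Saa4, the constitutive form, was the only member to pass the threshold in any comparison. It was 351, 561, and 401 RPKM in fasted Lpin1-/- liver and 118, 162, and 321 in refed Lpin1-/- liver, against 200.2, 408, and 272 in fasted and 249, 469.7, and 342 in refed Lpin1+/+ liver. The fasted and refed Lpin1-/- groups did not overlap, and the log2 difference with refeeding was −1.22 (SE 0.39, adjusted p = 0.0455). This call was close to the threshold: it was lost when genes were not filtered (adjusted p = 0.0796), when only the 6 Lpin1-/- libraries were fitted (0.0549), and when a single library was left out, namely fasted Lpin1+/+ replicate 3 (0.0656), fasted Lpin1-/- replicate 1 (0.0729), 2 (0.137), or 3 (0.0748), refed Lpin1+/+ replicate 1 (0.0511) or 3 (0.0609), or refed Lpin1-/- replicate 1 (0.159) or 2 (0.133). In Lpin1+/+ liver the refeeding difference was 0.28 (adjusted p = 0.789), and the difference between the 2 effects was −1.51 (SE 0.55, unadjusted p = 0.0189, adjusted p = 0.188). By mean log2 level the groups ran from fasted Lpin1-/- through refed Lpin1+/+ and fasted Lpin1+/+ to refed Lpin1-/-, and neighbors in that order overlapped.

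Both orosomucoids were highest in refed Lpin1+/+ replicate 2 and in fasted Lpin1-/- replicate 1. Orm2 was 138, 58.4, and 25.1 RPKM in fasted Lpin1+/+ liver, 919, 209, and 22.2 in fasted Lpin1-/- liver, 46.0, 1816, and 16.9 in refed Lpin1+/+ liver, and 155, 135, and 141 in refed Lpin1-/- liver. Orm1 was more abundant, at 758, 1795, and 1028 in fasted Lpin1+/+ liver, 3054, 1910.3, and 791 in fasted Lpin1-/- liver, 857, 4010.3, and 518 in refed Lpin1+/+ liver, and 1341, 2111, and 1879.6 in refed Lpin1-/- liver. The 3 refed Lpin1-/- libraries lay close together for Orm2 (SD 0.098 on the log2 scale), above replicates 1 and 3 and below replicate 2 of refed Lpin1+/+ liver. Genotype differences in refed liver were 0.53 (SE 0.69, adjusted p = 0.701) for Orm1 and 0.33 (SE 1.57, adjusted p = 0.925) for Orm2. Without refed Lpin1+/+ replicate 2 they were 1.39 (SE 0.54, adjusted p = 0.192) and 2.32 (SE 1.19, adjusted p = 0.331).

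By mean RPKM over the 12 libraries, the scavengers of hemoglobin and heme were the most abundant members, although Fgb (4884) was above Hpx (4040.4) in the mean of refed Lpin1-/- liver. Hp was 3640.2, 7184, and 5087 RPKM in fasted Lpin1+/+ liver, 13172, 5619.9, and 5545 in fasted Lpin1-/- liver, 4930.3, 21638, and 3463 in refed Lpin1+/+ liver, and 4099, 5295, and 5678 in refed Lpin1-/- liver. Hpx was 3554, 7008, and 4255 in fasted Lpin1+/+ liver, 23178, 10387, and 3946 in fasted Lpin1-/- liver, 3081, 26997, and 2597 in refed Lpin1+/+ liver, and 2797, 5089, and 4235 in refed Lpin1-/- liver. Refed Lpin1+/+ replicate 2 exceeded the mean of the other 2 libraries of its group 9.51-fold for Hpx and 5.16-fold for Hp. Refed against fasted Lpin1-/- liver gave −1.33 (SE 0.85, adjusted p = 0.283) for Hpx and −0.58 (SE 0.62, adjusted p = 0.527) for Hp, with overlapping groups.

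Lcn2, the iron-carrier trap, was 148, 111, and 42.2 RPKM in fasted Lpin1+/+ liver, 1034, 161, and 45.9 in fasted Lpin1-/- liver, 36.0, 6039, and 31.6 in refed Lpin1+/+ liver, and 56.1, 53.7, and 54.3 in refed Lpin1-/- liver. Its level in refed Lpin1+/+ replicate 2 was 179-fold the mean of the other 2 libraries. The 3 refed Lpin1-/- values differed by 1.05-fold at most, although the same gene ranged 22.5-fold in fasted Lpin1-/- liver and 191-fold in refed Lpin1+/+ liver. Refeeding differences were 1.11 (SE 1.69, adjusted p = 0.811) in Lpin1+/+ liver, or −1.37 (adjusted p = 0.662) without that library, and −1.84 (SE 1.69, adjusted p = 0.457) in Lpin1-/- liver.

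**Figure D2:**
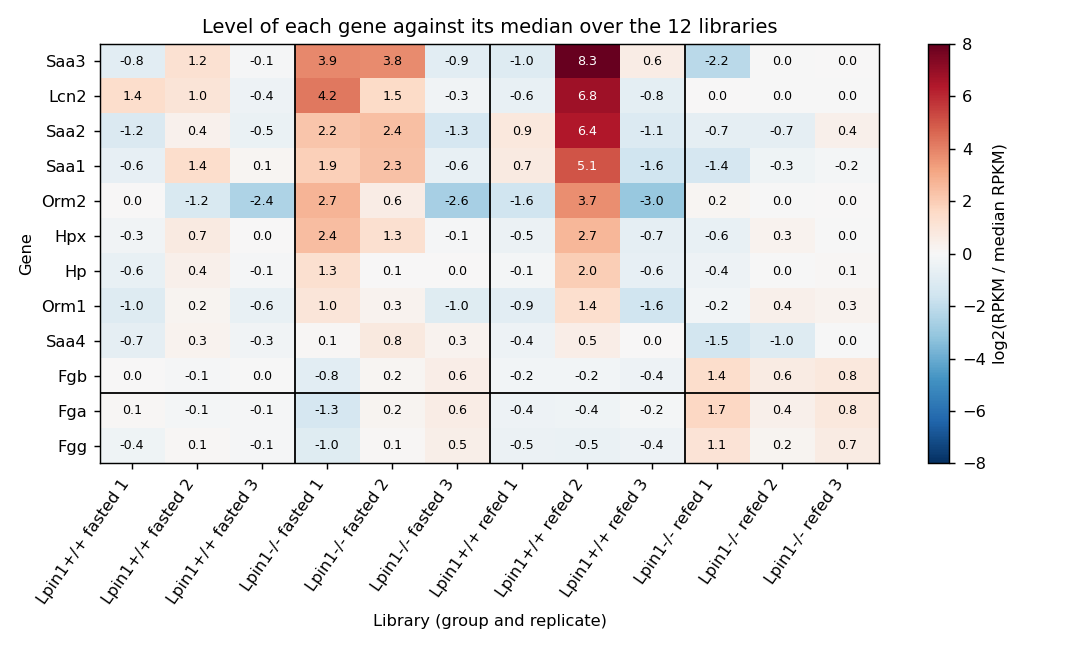
Level of each member and of the other fibrinogen chains (Fga and Fgg, below the line) in each library, as log2 of RPKM over the gene's median across the 12 libraries; vertical lines separate the groups. Red columns stand out at refed Lpin1+/+ replicate 2 and at replicate 1 of fasted Lpin1-/- liver for the upper 8 genes, whereas the fibrinogen chains are high in refed Lpin1-/- liver. At replicate 2 of fasted Lpin1-/- liver most of the upper 8 are also red, but Hp is close to its median and Orm1 only slightly above.

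Fgb, a chain of the clotting protein, was highest in other libraries than the rest. It was 2499, 2306, and 2414 RPKM in fasted Lpin1+/+ liver, 1376, 2754, and 3597 in fasted Lpin1-/- liver, 2093, 2121, and 1872 in refed Lpin1+/+ liver, and 6417, 3821, and 4415 in refed Lpin1-/- liver. All 3 refed Lpin1-/- libraries were above the other 9, and in fasted Lpin1-/- liver Fgb was lowest in replicate 1, where Lcn2, Orm2, and Hpx were highest. Refed Lpin1-/- liver had 4884 ± 1360 RPKM (SD, n = 3) against 2029 ± 136 (SD, n = 3) in refed Lpin1+/+ liver, a log2 difference of 1.23 (SE 0.35, unadjusted p = 0.00461, adjusted p = 0.0608). Every refed Lpin1-/- library was above every fasted one, with a fitted difference of 1.00 (SE 0.35, adjusted p = 0.0652), and in Lpin1+/+ liver all refed libraries were below all fasted ones, with a difference of −0.25 (SE 0.35, adjusted p = 0.797). Neither positive difference passed the threshold. The genotype difference did so with a minimum mean of 5 RPKM (adjusted p = 0.0421), with rescaled libraries (0.0484), or without fasted Lpin1-/- replicate 1 (0.0221). The refeeding difference did so with that minimum (0.0485) or without fasted Lpin1-/- replicate 3 (0.0322). Other settings weakened both. The refeeding difference was 0.63 with rescaled libraries (limma, adjusted p = 0.241) and 0.60 without fasted Lpin1-/- replicate 1 (0.232). The genotype difference was 1.02 without refed Lpin1-/- replicate 1 (0.202).

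The alpha and gamma chains, encoded beside Fgb and assembled with it into fibrinogen, were likewise higher in every refed Lpin1-/- library than in any refed Lpin1+/+ library. Fga was 4871, 2028, and 2747 RPKM in refed Lpin1-/- liver and 1182, 1187, and 1366 in refed Lpin1+/+ liver (1.27, SE 0.46, adjusted p = 0.125). Fgg was 5343, 2975, and 3986 against 1811, 1774, and 1882 (1.13, SE 0.37, adjusted p = 0.0919). Neither passed the threshold. Unlike Fgb, both overlapped between fasted and refed Lpin1-/- liver, since the refed replicate 2 values were below those of fasted replicate 3 (2357 for Fga and 3510.4 for Fgg); the refeeding differences there were 1.14 (adjusted p = 0.0998) and 0.79 (adjusted p = 0.146). In refed Lpin1+/+ replicate 2 they were 0.932 and 0.961 times the mean of the other 2 libraries of the group, and Fgb was 1.07 times. Over the 12 libraries, Fga (Pearson r = 0.971) and Fgg (r = 0.961) were the genes whose log2 level was most like that of Fgb among all tested genes.

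**Figure D3:**
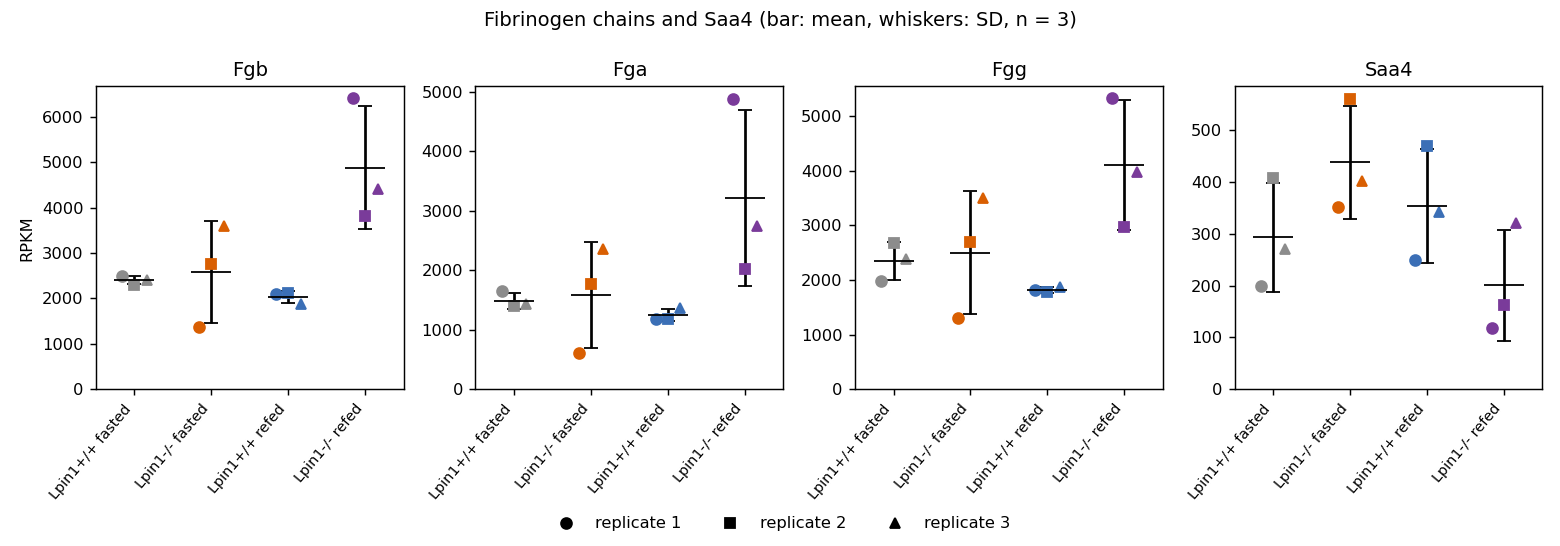
RPKM of the fibrinogen chains and of Saa4 in each library, with horizontal bars for the group mean and whiskers for the SD (n = 3 mice per group). The 3 refed Lpin1-/- libraries lie above both Lpin1+/+ groups for Fgb, and for Saa4 they lie below the 3 fasted Lpin1-/- libraries.

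Counted over the 10 members, adjusted p-values passed the threshold for 0 in refed against fasted Lpin1+/+ liver (background 1.72% of tested genes), 1 (Saa4, lower) in refed against fasted Lpin1-/- liver (background 20.7%, or 2.92% for lower calls), 0 by genotype in fasted liver (18.8%), 0 by genotype in refed liver (6.67%), and 0 for the difference of the refeeding effects (1.28%). At an unadjusted p under 0.05 the limma counts were 0, 2, 0, 2, and 2, against 13.9%, 36.1%, 33.0%, 22.5%, and 18.1% of tested genes. Groups did not overlap for 1 member (Fgb) in the first comparison, where this was so for 18.1% of tested genes, 2 (Saa4 and Fgb) in the second (46.8%), 0 in the third (32.9%), and 1 (Fgb) in the fourth (33.9%). The median log2 fold changes of the members were 0.72, −1.28, 0.99, and −0.76 in these 4 comparisons, beside 0.19, 0.25, −0.14, and −0.07 over all tested genes, and each comparison shares a group with 2 of the others. Without refed Lpin1+/+ replicate 2 the members' medians for refeeding in Lpin1+/+ liver and for genotype in refed liver turned sign, to −0.52 and 0.37, and the other medians were −1.28 and 0.99 as before. Kupffer cell and macrophage markers had medians of 0.14, −1.47, 0.55, and −0.86 in the same 4 comparisons; with refeeding of Lpin1-/- liver 0 of 10 were above 0 and 1 (Clec4f, −1.28, adjusted p = 0.0235) was called, or 6 without that library. Their sums were 98.6, 234, and 139 RPKM in refed against 834, 422, and 311 in fasted Lpin1-/- liver, and the part of this in the member levels was not tested. Rescaling the libraries brought the 4 medians over all tested genes to between −0.03 and 0.02.

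Leaving out refed Lpin1+/+ replicate 2 kept these counts at 0, 1, 0, 0, and 0, with backgrounds of 1.26%, 21.7%, 20.4%, 4.50%, and 0.528%, but turned the sign of the refeeding difference in Lpin1+/+ liver for 7 members (Saa1, Saa3, Orm1, Orm2, Hp, Hpx, and Lcn2). It also turned the genotype difference in refed liver from negative to positive for Hp (−0.53 to 0.27), Hpx (−0.61 to 0.47), and Lcn2 (−1.80 to 0.68). The Fgb difference in refed liver was 1.27 (SE 0.41, adjusted p = 0.113) without it.

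**Figure D4:**
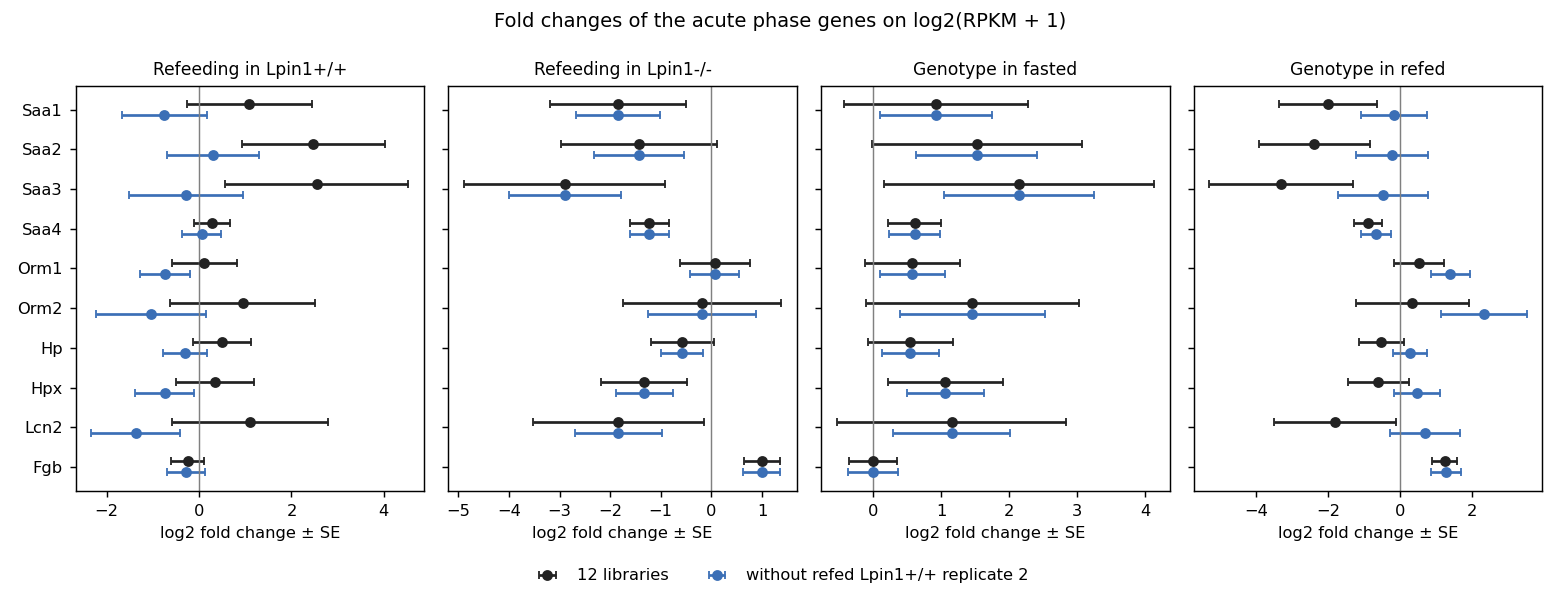
Log2 fold changes on log2(RPKM + 1) with their standard errors in 4 comparisons (each panel has its own range), from all 12 libraries (black) and without refed Lpin1+/+ replicate 2 (blue). Values for the refeeding of Lpin1+/+ liver and for genotype in refed liver move with that library, and those of Fgb and Saa4 move little.

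In fasted liver, 7 of the 10 members (Saa1, Saa2, Saa3, Orm1, Orm2, Hpx, and Lcn2) were higher in both replicates 1 and 2 of Lpin1-/- liver than in any Lpin1+/+ library, as were 15.5% of tested genes. Replicates 1 and 2 were singled out with the member values in view, and the members vary together, so this count is a description. Replicate 3 was below both other Lpin1-/- libraries for 8 members and above all 3 Lpin1+/+ libraries only for Fgb. Monocyte marker sums in these Lpin1-/- libraries were 654, 113, and 49.3 RPKM, and Kupffer cell and macrophage sums 834, 422, and 311, in the order of replicates 1 to 3. In the same order, neutrophil markers summed to 188, 131, and 57.8 (10.7 to 173 in fasted Lpin1+/+ liver), lymphocyte markers to 9.84, 5.45, and 2.71, and cholangiocyte markers to 451, 57.0, and 24.9. Not every cell type fell in this order. Sinusoidal endothelium markers summed to 40.4, 56.9, and 59.7, hepatocyte markers to 65498, 79097, and 88521, and stellate cell markers to 286, 194, and 250. Lcn2 is itself also a neutrophil gene. Their part in the member levels was not tested.

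The genes whose log2 level was most like that of a member over the 12 libraries included several of inflammation and interferon responses, named here as descriptions that rest in part on refed Lpin1+/+ replicate 2. For Saa3 these were Cxcl9 (a chemokine; r = 0.987, and 0.965 over the other 11 libraries), Phf11b (0.969), and Ccl2 (a monocyte chemokine; 0.966). For Hpx they were Ly6i (0.978), Cyba (a subunit of the phagocyte oxidase; 0.969), and H2-D1 (a class I histocompatibility antigen; 0.965). For Lcn2 they were Cyp4f16, Cybb (the catalytic subunit of the phagocyte oxidase), and Alpk1, each at 0.971. Saa1 was closest to Pycard (an inflammasome adaptor; 0.949), Saa2 to Fbxw17 (0.958), Orm1 to Ctla2b (0.912), Orm2 to Pglyrp2 (a peptidoglycan amidase; 0.929), Hp to Dynlt1f (0.965), and Saa4 to BC029214 (0.811).

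Of the cytokine ligands, only 3 of 9 listed genes reached the minimum mean, and 0 of the 3 passed the threshold in any comparison (limma; 1 had an unadjusted p under 0.05, by genotype in fasted liver). Without refed Lpin1+/+ replicate 2, 1 of the 3 was called higher in fasted Lpin1-/- liver (background 20.4% of tested genes). Il1b, which encodes interleukin 1 beta, was 15.2 RPKM in refed Lpin1+/+ replicate 2 and 0.346 to 3.01 in the other 11 libraries, and Tnf was 3.32 there against 0.378 or less; these 2 genes were chosen after their values were seen. Il6 was at or below 0.098 RPKM in every library. Of 11 receptors, Tnfrsf1a (a receptor of tumor necrosis factor) rose with refeeding in Lpin1-/- liver (0.95, SE 0.29, adjusted p = 0.0378), where 20.7% of all tested genes were called. No other receptor passed the threshold in any of the 5 comparisons.

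Signalling and transcription factors of the response (26 tested of 27 listed) were called for feeding in 6 cases in Lpin1-/- liver, where 20.7% of all tested genes were called, and in 1 case in Lpin1+/+ liver, where 1.72% were; 0 of the 26 differences between the 2 effects passed the threshold (limma; 5 had an unadjusted p under 0.05). In Lpin1-/- liver 5 rose, among them Bcl3 (2.28, SE 0.33, adjusted p = 0.00135), Foxa2 (adjusted p = 0.00351), Ikbkg (1.74), and Map3k7 (0.76), and Nfkbia, the inhibitor of NF-kB, fell (−1.68, adjusted p = 0.0137). In Lpin1+/+ liver Bcl3, a nuclear partner of NF-kB, alone rose (1.73, adjusted p = 0.0251, and 0.0685 without replicate 2 of the refed group). By genotype in fasted liver 5 of the 26 were called, where 18.8% of all tested genes were. Cebpb (1.71, adjusted p = 0.00529) and Nfkbia (1.49, adjusted p = 0.0239) were higher in Lpin1-/- liver. The other 3 were lower, among them Bcl3 (−1.02, adjusted p = 0.0479) and Tyk2 (−1.01, adjusted p = 0.0192). In refed liver Tyk2, a kinase of cytokine receptors, was lower in Lpin1-/- (−1.14, adjusted p = 0.0246, and 0.0618 without refed Lpin1+/+ replicate 2). It was the only 1 of the 26 called there, beside 6.67% of all tested genes. Stat3 itself passed the threshold in none of the 5 comparisons.

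Other positive acute phase proteins (23 tested) included 6 that were higher and 0 that were lower in fasted Lpin1-/- than in fasted Lpin1+/+ liver, where 18.8% of all tested genes were called (648 higher and 1520 lower): the metallothioneins Mt1 (3.90, SE 0.53, adjusted p = 0.000896) and Mt2 (3.89), the endotoxin receptor Cd14, also a gene of monocytes and macrophages (3.94, SE 1.05, adjusted p = 0.0231), the zinc transporter Slc39a14 (2.29), Steap4 (1.83), and hepcidin (Hamp, 3.14, adjusted p = 0.0442). In refed liver, against 6.67% of all tested genes, 3 were higher, Mt2 (5.04, SE 0.60, adjusted p = 0.00125), Mt1 (4.96), and Slc39a14 (1.94, adjusted p = 0.0475). Without refed Lpin1+/+ replicate 2, 2 of the 23 were called (background 4.50%). Mt2 (adjusted p = 0.00155) and Mt1 (0.000992) kept their calls, and Slc39a14 did not. Refeeding lowered Mt2 in both genotypes (−3.20 in Lpin1+/+ and −2.05 in Lpin1-/-) and Mt1 in Lpin1+/+ liver (−2.49, adjusted p = 0.0384). These were 2 of 23 in Lpin1+/+ and 1 of 23 in Lpin1-/- liver, beside 1.72% and 20.7% of all tested genes. Mt1 was without overlap by genotype, at 12544 to 20880 RPKM in fasted Lpin1-/- liver against 675 to 2299 in fasted Lpin1+/+ liver. Hamp varied more, at 62.2, 1691, and 1032 RPKM in fasted Lpin1+/+ liver and 2989, 5144, and 4895 in fasted Lpin1-/- liver. None of the 9 negative acute phase proteins passed the threshold in any comparison by limma, and 1 had an unadjusted p under 0.05 by genotype in fasted and 1 in refed liver.

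Among the receptors and iron genes that handle the ligands of the members (10 tested of 11), Slc40a1, the iron exporter ferroportin, was 15.1, 17.9, and 13.0 RPKM in fasted Lpin1-/- liver and 83.3, 101, and 76.5 in refed Lpin1-/- liver. In Lpin1+/+ liver it was 68.6, 46.9, and 86.9 when fasted and 55.9, 76.3, and 32.1 when refed. It rose with refeeding in Lpin1-/- liver by 2.43 (SE 0.31, adjusted p = 0.000778), was lower by genotype in fasted liver (−2.04, adjusted p = 0.00155), and differed in its refeeding effect between genotypes (2.77, SE 0.43, adjusted p = 0.0157). Slc22a17, a receptor of lipocalin 2, fell with refeeding in Lpin1-/- liver (−0.69, adjusted p = 0.0168), and Tfrc, the transferrin receptor, rose in Lpin1+/+ liver (1.29, adjusted p = 0.0347, and 0.0856 without refed replicate 2). With refeeding, 2 of the 10 were called in Lpin1-/- liver (20.7% of all tested genes) and 1 in Lpin1+/+ liver (1.72%). By genotype in fasted liver 1 was called (18.8%), and 1 for the difference of the refeeding effects (1.28%).

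The members were also read at the level of exons, from counts of reads that include or skip an exon, given as 3 values per group without replicate numbers. By genotype in fasted liver, 38 of 230 skipped exon events in members passed the threshold (16.5%, against a background of 11.3% of 69644 events), and all 38 had lower inclusion in Lpin1-/- liver, as did 7.81% of all events. In refed liver 11 of 302 passed (3.64%, background 0.970% of 65231), of which 10 had lower inclusion (0.819% of all events). Leaving out a single library gave 19 to 38 calls in fasted liver and 0 in refed liver whichever of the 6 was left out (limma; 73 to 92 had an unadjusted p under 0.05). The lowest fasted counts came without the third listed Lpin1+/+ library (20) and without the first or second listed Lpin1-/- library (19 each). At an unadjusted p under 0.05, 96 events passed in fasted and 98 in refed liver (26.1% and 14.3% of all events). Events are not independent, because those of a gene share reads: the 38 rest on 6 skipping junctions (Orm1, Hpx, Hp, and Saa4), and the 11 on 3.

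In Orm1, 18 of the 38 events share the junction from exon 2 to exon 4 (chromosome 4, 63345211 to 63346040), which leaves out exon 3, a coding exon of 71 bases at 63345421-63345491. Reads across it numbered 0, 2, and 0 in fasted Lpin1+/+ liver and 161, 113, and 40 in fasted Lpin1-/- liver, beside 24488, 55954, and 32524 and 93509, 62134, and 25594 reads that include the exon. That is 17.2, 18.2, and 15.6 skipping reads per 10000 inclusion reads in fasted Lpin1-/- liver, and at most 0.357 in fasted Lpin1+/+ liver. In refed liver the values were 0, 0.494, and 1.69 in Lpin1+/+ and 14.7, 5.45, and 14.3 in Lpin1-/-. The groups did not overlap in either feeding state; adjusted p-values of the events were 0.000726 to 0.00123 in fasted liver, and 3 of 26 passed in refed liver.

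Hpx had a comparable junction from exon 3 to exon 6 (chromosome 7, 105595672 to 105599662, minus strand), which leaves out coding exons 4 (119 bases) and 5 (154 bases). It was crossed by 3, 0, and 0 reads in fasted Lpin1+/+ liver and by 137, 115, and 9 in fasted Lpin1-/- liver. Refed liver had 0, 0, and 0 against 51, 22, and 50. Per 10000 inclusion reads, Lpin1-/- liver had 2.44, 3.84, and 0.777 when fasted and 5.28, 1.33, and 3.91 when refed. The refed Lpin1+/+ list with the most Hpx reads held 827778 inclusion reads, and its 0 skipping reads allow at most 0.0362 per 10000 (3 counts, counting error only). All 9 events on this junction passed in fasted liver (adjusted p = 0.0104 to 0.0127) and all 7 in refed liver (0.0212). Skipping thus made up a very small share of either mRNA, and the orosomucoid counts carry the uncertainty of the shared Orm2 sequence.

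**Figure D5:**
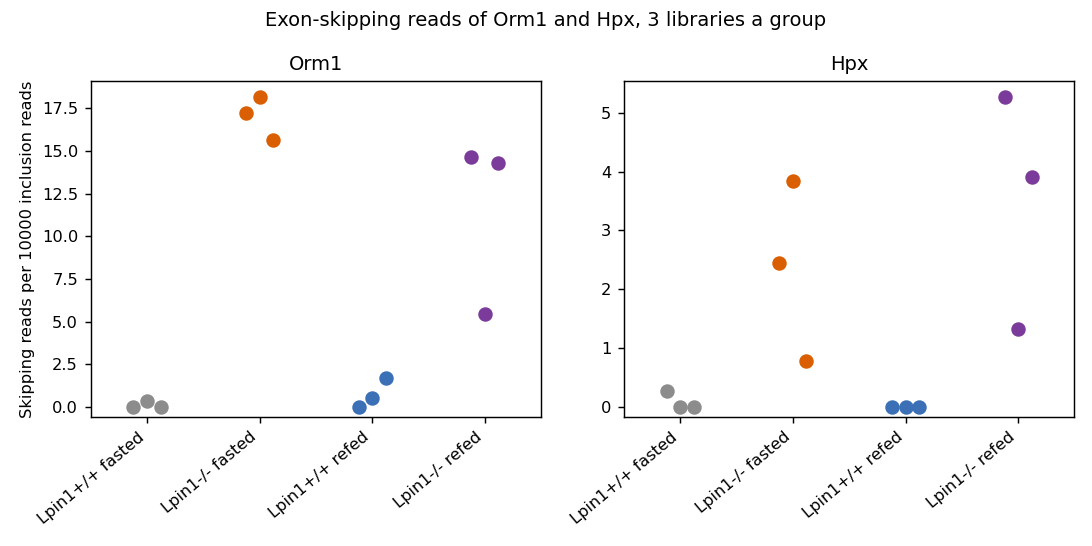
Reads that skip exon 3 of Orm1 (left) or exons 4 and 5 of Hpx (right) per 10000 reads that include the exon, for the 3 libraries of each group in the order listed, which carries no replicate numbers. In both feeding states the Lpin1-/- libraries lie above the Lpin1+/+ libraries.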

How the data were processed

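Liver mRNA of 12 mice was sequenced as stranded 69-base pairs. Per the methods and the submitters' processing notes, the authors aligned reads to GRCm38 with HISAT2 2.0.5, counted them per gene with HTSeq 0.6.0, and deposited RPKM values for 22456 genes; the authors' notes also name DESeq2 1.20.0. For skipped exons the authors ran rMATS (version not given in the sources used here) and deposited other values, namely inclusion and skipping counts in lists of 3 per group. The authors' own p-values and inclusion differences in these tables were not used. A count test could not be run on RPKM, so limma 3.58.1 (R 4.3.3) was fitted with a variance trend to log2(RPKM + 1) of all 4 groups for genes whose mean reached 0.5, with Benjamini-Hochberg adjustment over 11507 genes and a threshold of 0.05. A fold change on this scale understates that of low genes. Events with at least 10 counts in each of 6 libraries were fitted as log2 ratios of length-normalized inclusion to skipping, with 0.5 added. Both fits were tested on simulated data.

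The members, lists, and rules were chosen with earlier results of these data known. Named from each list were up to 2 genes per direction and comparison with the largest change among those called, and from all genes the 3 most like a member. Where 5 or fewer of a list were called, all are named except genes not reported here, and Mt2, Hamp, Steap4, Slc39a14, Stat3, Il6, Il1b, and Tnf are also named beyond the rule, chosen after their values were seen. Libraries were grouped by genotype and feeding labels; nothing beyond the labels says that mice of a group were reared apart, so p-values measure the spread between these mice. The labels number replicates 1 to 3 in every group, but only between the refed groups did all 3 same-numbered pairs deviate together (correlations 0.162 to 0.297). Same-numbered correlations were −0.474 to 0.251 in the other 3 comparisons. The highest correlation of a different-numbered pair was 0.494, between fasted Lpin1+/+ replicate 2 and fasted Lpin1-/- replicate 1. Depth per library is known only relatively. Alternatives were a pseudocount of 0.1, other filters, rescaled libraries, a replicate block, 6 libraries only, an added fold threshold, and each library left out.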

Additional observations from a re-analysis of the deposited data

Results flagged for a closer look

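Fgb, the fibrinogen beta chain, is listed because every refed library was below every fasted one in Lpin1+/+ liver (1872 to 2121 against 2306 to 2499 RPKM) and every refed library was above every fasted one in Lpin1-/- liver (3821 to 6417 against 1376 to 3597 RPKM). The difference of the refeeding effects was 1.24 on the log2 scale (SE 0.50), which limma gave an unadjusted p of 0.0287 and an adjusted p of 0.221, so it did not pass the threshold. Without refed Lpin1+/+ replicate 2 it was 1.28 (adjusted p = 0.329).

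Slc40a1, the iron exporter, is listed because its refeeding effect differed between the genotypes by 2.77 on the log2 scale (SE 0.43, adjusted p = 0.0157), with higher values in 3 of 3 refed than fasted Lpin1-/- libraries. Without refed Lpin1+/+ replicate 2 the difference was 3.05 (adjusted p = 0.0129).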

How the results depend on the processing

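Of 340 member log2 fold changes recomputed with another pseudocount, filter, scaling, block, set of libraries, or threshold, 332 kept their sign and their side of the threshold, 3 changed sign, 3 newly passed, and 2 no longer passed. The sign changes came with rescaled libraries: Orm1 was −0.10 with refeeding in Lpin1+/+ and −0.30 in Lpin1-/- liver, and Fgb was 0.20 by genotype in fasted liver. Members called with refeeding of Lpin1-/- liver numbered 0 with no filter, 0 with only the 6 libraries compared, and 2 with a minimum mean of 5 RPKM; by genotype in refed liver 1 was called with that minimum and 1 with rescaled libraries. With 1 added to each count, 25 skipped exon events were called in refed liver. With a replicate block, 0, 1, 0, 0, and 0 members were called in the 5 comparisons, and Saa4 with refeeding of Lpin1-/- liver kept its call (−1.22, adjusted p = 0.0244); the block changed no member's call, although genes called with refeeding of Lpin1+/+ liver fell from 198 to 93. The cause of these changes was not tested.

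Of 600 fold changes with a single library left out, 562 kept sign and side, 28 changed sign, 2 newly passed, and 8 no longer passed. Members called ranged from 0 to 1 with refeeding of Lpin1-/- liver and from 0 to 1 by genotype in refed liver, and skipped exon events from 19 to 38 in fasted and from 0 to 0 in refed liver. In Lpin1+/+ liver the refeeding differences ranged from −0.75 to 2.58 (Saa1), −0.28 to 4.35 (Saa3), −0.75 to 0.73 (Orm1), −1.05 to 2.28 (Orm2), −0.31 to 1.02 (Hp), −0.74 to 0.95 (Hpx), and −1.37 to 2.40 (Lcn2). In Lpin1-/- liver they ranged from −0.47 to 0.51 (Orm1) and −1.60 to 1.05 (Orm2). Genotype differences ranged from −0.31 to 0.39 (Fgb) and −0.040 to 2.19 (Lcn2) in fasted liver, and from −1.05 to 0.27 (Hp), −1.22 to 0.47 (Hpx), −3.09 to 0.68 (Lcn2), −0.086 to 1.39 (Orm1), and −1.02 to 2.32 (Orm2) in refed liver. Differences between the refeeding effects ranged from −0.66 to 0.81 (Orm1) and −2.55 to 0.86 (Orm2). Where a group keeps 2 libraries, their spread is assumed to be like that of the other groups. Depth is known only relatively, and several skipped exon events rest on fewer than 10 skipping reads in a library.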

Other observations

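The genes that stood highest in refed Lpin1+/+ replicate 2, chosen after their values were seen, included the chemokine Ccl20 (25.5 RPKM, against at most 0.174 in the other 11 libraries), Irg1, which encodes the itaconate-producing enzyme of activated macrophages (6.03 against at most 0.265), and the chemokine receptor Ccr2 (13.9 against at most 0.848). The interferon-inducible genes Cxcl9 (1121 against at most 72.7 RPKM) and Gbp2 (49.6 against at most 3.88) were among them too. Among the members, Saa3 and Saa2 were in the same list, at 22.5 and 15.5 times the highest other library. Whether the mouse was ill is not given in the labels, and these values come from 1 animal.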
